A study of Sus scrofa with 15 samples.

Results

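The genes described here build the inflammasome and the gasdermin pores that act downstream of it. The set was fixed by name and holds 10 genes: the sensors NLRP3 and NLRP1, the adaptor PYCARD, the protease CASP1, the cytokines IL18 and IL1B, the receptor antagonist IL1RN, and the pore proteins GSDMD, GSDME and GSDMB. Of these, 7 could be paired with 1 of the 30477 Ensembl genes of the count files, and all 7 were among the 14918 genes with enough reads to be tested. NLRP1, IL1B and IL1RN were not paired with an identifier and were not analysed here. NLRP3, PYCARD and GSDMB were already singled out by the study from these same libraries, so their values are not independent evidence of a direction.

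Backfat, the subcutaneous fat of the back, was sampled by biopsy from Iberian pigs at the end of their growing period, and RNA-seq gave 1 library per pig. The 3 diets were a control compound feed (C), a compound feed that contained dry olive pulp (DOP), and a compound feed without olive given together with a silage of wet crude olive cake and barley straw (WCOC), with 5 pigs each. Pigs of a diet shared a single pen. The control feed was offered at a higher share of free intake than the compound feeds of both olive diets. The WCOC silage was offered without limit. By the paper's group averages, daily feed intake per pig was higher in DOP than in C. WCOC pigs ate slightly less compound feed than C, with silage in addition. Diet, pen and feeding level thus cannot be told apart. The pigs were chosen by the amount and quality of their RNA.

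An inflammasome is a protein platform that cells of the innate immune system, macrophages above all, assemble in the cytosol. A sensor such as NLRP3 recruits the adaptor ASC, encoded by PYCARD, which in turn gathers and activates caspase-1. Caspase-1 then matures interleukin 1 beta and interleukin 18 and cuts gasdermin D, whose released fragment forms pores in the cell membrane and can end in pyroptosis, an inflammatory form of cell death. In adipose tissue NLRP3 and caspase-1 are best known from the macrophages that gather in fat during obesity, whereas gasdermins are also made by epithelial and other cells.

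Each library held between 22373715 and 34745218 counts on genes, and the median was 27522449 for C, 29104570 for DOP and 27098819 for WCOC. Control replicates 3 and 5 stood apart from the rest: the summed level of 15 macrophage markers was 774.7 and 1018 CPM (counts scaled to a common library size) there, against 332.4 to 445.6 in the other 3 controls. The values of the genes that rest most on these libraries are also given without them. Both were picked after seeing the data. They hold the highest control values of NLRP3, PYCARD, CASP1, IL18 and GSDMD, and the lowest of GSDMB. Leaving them out thus raises the log2FC of the former against C and lowers that of GSDMB by construction, with 3 controls left. Such values show how much a result rests on these libraries and are no independent test of it. Flow cell B carried every DOP library together with control replicate 5, whereas flow cell A carried control replicates 1 to 4 and the WCOC libraries. DOP and flow cell B can thus hardly be told apart. With a flow cell term in the fit, DOP vs. C in effect compares DOP with control replicate 5 alone. In bulk tissue, fewer cells of a type and less RNA per cell cannot be told apart.

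In WCOC vs. C, 2 of the 7 genes were differentially expressed (DEGs): GSDMB rose 1.69-fold and PYCARD fell to 0.388 of its control level. A DEG had an adjusted p under 0.05 in edgeR's quasi-likelihood test, adjusted by the Benjamini-Hochberg method over the whole table, and a log2 fold change (log2FC) of at least 0.58 in size. By the same rule 6.25% of all tested genes were DEGs, 2.33% higher and 3.93% lower. The other 5 genes were not DEGs, and 6 of the 7 had a negative log2FC (median −0.35, against 0.0043 over all tested genes). Without control replicates 3 and 5, picked after seeing the data, the median was 0.061 and 3 of 7 were negative. DESeq2, the tool of the study, called 3 of the 7 genes, the third being NLRP3, beside 7.92% of all genes.

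In DOP vs. C none of the 7 genes was a DEG with edgeR, beside 0.764% of all tested genes. PYCARD was the 1 gene of 7 with an unadjusted p under 0.05, which 17.6% of all tested genes had, and DESeq2 called 0 of the 7, beside 3.32% of all genes. The median log2FC of the genes was −0.18, against 0.011 over all tested genes, and 5 of the 7 values were negative. Without control replicates 3 and 5, picked after seeing the data, the median was 0.081 and 2 of 7 were negative. In WCOC vs. DOP, the comparison that does not share the control pigs, GSDMB alone was a DEG, beside 7.76% of all tested genes. DESeq2 called GSDMB and GSDMD there, beside 9.55% of all genes. Both olive diets were set against the same 5 controls, so their values for a gene share the error of the control mean.

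**Figure D1:**
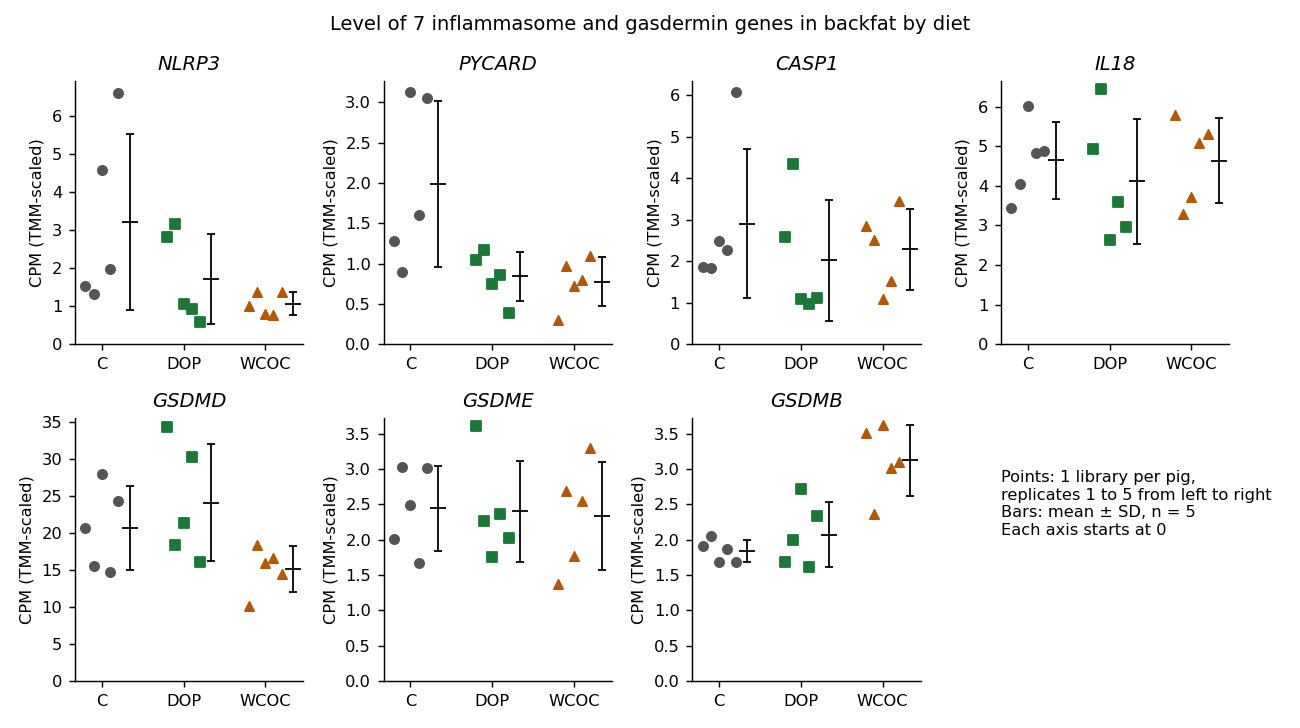
Level of the 7 genes in CPM after TMM scaling (vertical axes, each starting at 0) in C, DOP and WCOC, with 1 point per library and bars for the mean ± SD of 5 libraries. The 5 WCOC values of GSDMB lie above the highest control (2.05 CPM), whereas the control means of NLRP3 and PYCARD are drawn up by replicates 3 and 5.

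Expressed per kilobase of annotated exon, the only scale on which levels of different genes are compared here, GSDMD was the most abundant of the 7 genes in C with 10.2 ± 2.82 CPM per kb (SD, n = 5). IL18 followed with 5.21 ± 1.09, then CASP1 with 2.40 ± 1.48, PYCARD with 1.94 ± 1.01, GSDMB with 1.14 ± 0.0961, NLRP3 with 0.635 ± 0.459 and GSDME with 0.431 ± 0.106 CPM per kb. GSDMD lay above IL18 in every control pig, while all other neighbours in this order overlapped. In WCOC, GSDMB moved from the fifth to the third place with 1.94 ± 0.309 CPM per kb, and it still overlapped CASP1 (1.89 ± 0.802). Counts were assigned to Ensembl genes and exon lengths were taken from RefSeq, so this order is approximate. In it the sensor had one of the lowest levels per kb, and the executioner of pyroptosis the highest.

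NLRP3 encodes the sensor that responds to crystals, extracellular ATP and many microbial triggers. Its gene (ENSSSCG00000013940) lies on chromosome 2 of the Sscrofa11.1 assembly, from 56892241 to 56977412 on the minus strand, and the RefSeq annotation gives it 12 exon blocks. An uncharacterised gene on the other strand overlaps it, and the strand setting of the counting is not given in the sources used here, so its counts are uncertain to that extent. The level was 1.52, 1.32, 4.59, 1.99 and 6.63 CPM in control replicates 1 to 5, 2.81, 3.17, 1.05, 0.939 and 0.593 CPM in DOP, and 1.01, 1.39, 0.784, 0.762 and 1.39 CPM in WCOC. The 2 highest values were those of control replicates 3 and 5, and all 3 diets overlapped.

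In WCOC vs. C the log2FC of NLRP3 was −1.59 ± 0.52 (SE; 95% interval −2.70 to −0.49; edgeR adjusted p = 0.0655), from 3.21 ± 2.32 CPM in C to 1.07 ± 0.308 CPM in WCOC (SD, n = 5). It therefore missed the DEG limit with edgeR, and passed it with DESeq2 (adjusted p = 0.0173). Leaving out control replicate 2 or DOP replicate 5 brought the edgeR adjusted p to 0.0460 and 0.0491. Without control replicates 3 and 5 together the log2FC was −0.60 (adjusted p = 0.542). On flow cell A alone, with 4 controls and 5 WCOC pigs, it was −1.16 (adjusted p = 0.108). In DOP the mean was 1.71 ± 1.19 CPM, a log2FC of −0.92 ± 0.51 against C (adjusted p = 0.372) that turned to 0.081 without those 2 controls. With flow cell as a covariate the log2FC was −1.95, but that value in effect sets DOP against control replicate 5 alone, the highest control (6.63 CPM).

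PYCARD encodes ASC, the adaptor whose pyrin and CARD domains link sensor and caspase-1, and which assembles into a speck in the activated cell. The gene (ENSSSCG00000040811) was matched by its product name to a RefSeq entry without a symbol, on chromosome 3 from 17305921 to 17307521 on the plus strand. Levels were low, with 9 to 98 counts per library. They were 1.28, 0.897, 3.12, 1.60 and 3.05 CPM in control replicates 1 to 5, 1.04, 1.17, 0.741, 0.864 and 0.384 CPM in DOP, and 0.295, 0.973, 0.718, 0.794 and 1.09 CPM in WCOC. All 5 pigs of each olive diet lay below the second-lowest control, and 3 of 5 in each diet lay below the lowest.

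The mean of PYCARD fell from 1.99 ± 1.03 CPM in C to 0.774 ± 0.306 CPM in WCOC, with a log2FC of −1.36 ± 0.40 (SE; 95% interval −2.22 to −0.50; edgeR adjusted p = 0.0447). In DOP, at 0.840 ± 0.304 CPM, the log2FC was of a like size, −1.25 ± 0.40 (95% interval −2.11 to −0.39), but the adjusted p was 0.143. That value was −0.58 (adjusted p = 0.605) without control replicates 3 and 5. It was −1.86 with flow cell as a covariate, where DOP is in effect compared with control replicate 5 alone. WCOC and DOP were not told apart for this gene (log2FC −0.11, 95% interval −0.99 to 0.76, adjusted p = 0.892). The WCOC call was not stable to the choice of pigs. It was lost without control replicate 3 (adjusted p = 0.120), 4 (0.0569) or 5 (0.106), without DOP replicate 1 (0.0525), 2 (0.0502), 3 (0.0543) or 4 (0.0563), and without WCOC replicate 1 (0.101), 3 (0.0889), 4 (0.0863) or 5 (0.0520). It was also lost on flow cell A alone (log2FC −1.17, adjusted p = 0.130) and without control replicates 3 and 5 together (log2FC −0.70, adjusted p = 0.377).

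**Figure D2:**
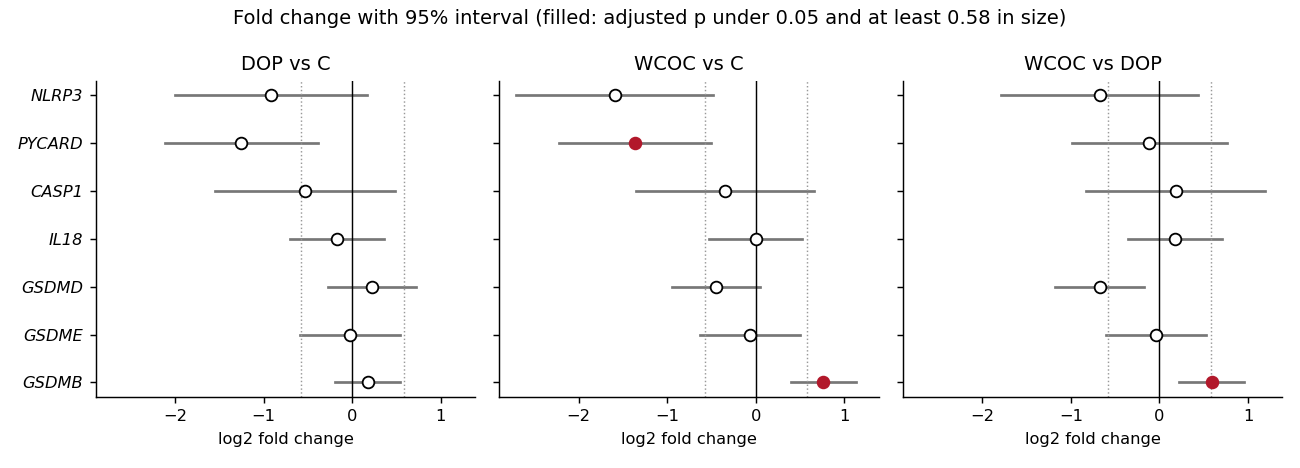
Log2FC of the 7 genes (horizontal axes) with 95% intervals in the 3 comparisons of diets, where filled points are DEGs and dotted lines mark a log2FC of 0.58 in size. The filled points are PYCARD (−1.36) and GSDMB (0.76) in WCOC vs. C and GSDMB (0.59) in WCOC vs. DOP, and the intervals of GSDMB are the narrowest.

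CASP1 encodes caspase-1, the protease that the complex activates. The gene (ENSSSCG00000028711; chromosome 9, 35188066 to 35199364, minus strand) ranged from 1.84 to 6.06 CPM in C, from 0.976 to 4.34 CPM in DOP and from 1.08 to 3.45 CPM in WCOC. The highest value was again that of control replicate 5, and the diets overlapped. Its log2FC was −0.53 ± 0.47 in DOP vs. C (95% interval −1.55 to 0.48, adjusted p = 0.613) and −0.35 ± 0.47 in WCOC vs. C (−1.36 to 0.65, adjusted p = 0.676). Without control replicates 3 and 5 both values turned positive (0.015 and 0.20). In DOP vs. C the log2FC was −1.59 with flow cell as a covariate, where control replicate 5, the highest, is in effect the only control compared. It was −1.03 without DOP replicate 2 (adjusted p = 0.301). Over all fits the sign was negative in 25 of 26 in DOP vs. C and in 23 of 27 in WCOC vs. C. CASP1 was called in none of them.

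IL18 encodes interleukin 18, a cytokine of the IL-1 family that is stored as a precursor and released after cleavage by caspase-1. It lies on the same chromosome (ENSSSCG00000015037; 39839959 to 39861258, minus strand). Its mean was 4.64 ± 0.973 CPM in C, 4.12 ± 1.58 CPM in DOP and 4.64 ± 1.08 CPM in WCOC. The log2FC was −0.18 ± 0.25 in DOP vs. C (95% interval −0.71 to 0.35) and −0.0022 ± 0.25 in WCOC vs. C (−0.53 to 0.53), with adjusted p of 0.765 and 0.997. Of the 7 genes IL18 had the smallest difference between WCOC and C, and its interval stayed within a change of 0.58 in size.

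GSDMD encodes gasdermin D, the pore protein that caspase-1 cuts. The gene (ENSSSCG00000006955; chromosome 4, 995753 to 1001964, minus strand) had the highest counts of the set. Its level was 20.6, 15.5, 28.0, 14.7 and 24.4 CPM in control replicates 1 to 5, 34.3, 18.4, 21.4, 30.2 and 16.1 CPM in DOP, and 10.1, 18.3, 15.9, 16.6 and 14.5 CPM in WCOC. The DOP pigs held the 2 highest values and 1 WCOC pig the lowest, while the diets overlapped. Against C the log2FC was 0.22 ± 0.23 in DOP (adjusted p = 0.677) and −0.45 ± 0.23 in WCOC (adjusted p = 0.230). Control replicates 3 and 5 held the highest control values, and without them these were 0.51 (adjusted p = 0.472) and −0.17 (adjusted p = 0.763). In WCOC vs. DOP it was −0.68 ± 0.23 (95% interval −1.17 to −0.18), not a DEG with edgeR (adjusted p = 0.0714) but called by DESeq2 (adjusted p = 0.0309). With flow cell as a covariate that log2FC was −0.37 (adjusted p = 0.754), in a fit that takes the flow cell difference from the controls alone.

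GSDME encodes gasdermin E, a pore protein of the same family. Its gene (ENSSSCG00000016716; chromosome 18, 47524637 to 47583748, plus strand) averaged 2.44 ± 0.603 CPM in C, 2.41 ± 0.716 CPM in DOP and 2.34 ± 0.768 CPM in WCOC. The log2FC was −0.027 ± 0.26 in DOP vs. C (95% interval −0.59 to 0.53) and −0.066 ± 0.26 in WCOC vs. C (−0.63 to 0.49), with adjusted p of 0.973 and 0.901. The values of the 3 diets covered nearly the same range, and the sign of the small difference changed between settings.

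GSDMB encodes gasdermin B, a pore protein that granzyme A of cytotoxic lymphocytes can cut and that is best known from airway and gut epithelium. The gene (ENSSSCG00000021018) lies on chromosome 12 from 22418672 to 22434428 on the plus strand, with 11 exon blocks. It was read with 39 to 111 counts per library. Its level was 1.91, 2.05, 1.69, 1.87 and 1.69 CPM in control replicates 1 to 5, 1.69, 2.00, 2.72, 1.61 and 2.34 CPM in DOP, and 3.502, 2.36, 3.62, 3.02 and 3.10 CPM in WCOC. All 5 WCOC pigs were above the highest control, and 4 of 5 were above the highest DOP pig. Values that did not overlap, with WCOC higher, were seen in 3.75% of all tested genes. In C its 5 values lay close together, with a coefficient of variation of 8.41%, against 20.96% to 72.2% for the other 6 genes. At 39 to 53 counts in the controls, counting error alone is larger than 8.41%. The closeness of these values therefore does not show that the gene is stable in C.

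The mean of GSDMB rose from 1.84 ± 0.155 CPM in C to 3.12 ± 0.498 CPM in WCOC, with a log2FC of 0.76 ± 0.17 (SE; 95% interval 0.39 to 1.13; edgeR adjusted p = 0.0154). Against DOP, with 2.07 ± 0.460 CPM, the log2FC was 0.59 ± 0.17 (95% interval 0.22 to 0.96; adjusted p = 0.0384), just above the limit of 0.58. DOP and C differed by 0.17 ± 0.17 (95% interval −0.20 to 0.54, adjusted p = 0.663). The call in WCOC vs. C held in all 15 fits that left out 1 library (adjusted p 0.00861 to 0.0470). It was lost, at a similar log2FC, on flow cell A alone (0.72, adjusted p = 0.0596) and without control replicates 3 and 5 together (0.68, adjusted p = 0.112).

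The call of GSDMB in WCOC vs. DOP was less stable. It was lost in 8 of the 10 fits without a WCOC or DOP library: without DOP replicate 1 (adjusted p = 0.0794), 2 (0.0840), 4 (0.0906) or 5 (0.0626), and without WCOC replicate 1 (0.0865), 3 (0.0838), 4 (0.0638) or 5 (0.0664). It was kept without DOP replicate 3 or WCOC replicate 2. With flow cell as a covariate the log2FC was 0.44 (adjusted p = 0.594), in a fit that takes the flow cell difference from the controls alone.

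**Figure D3:**
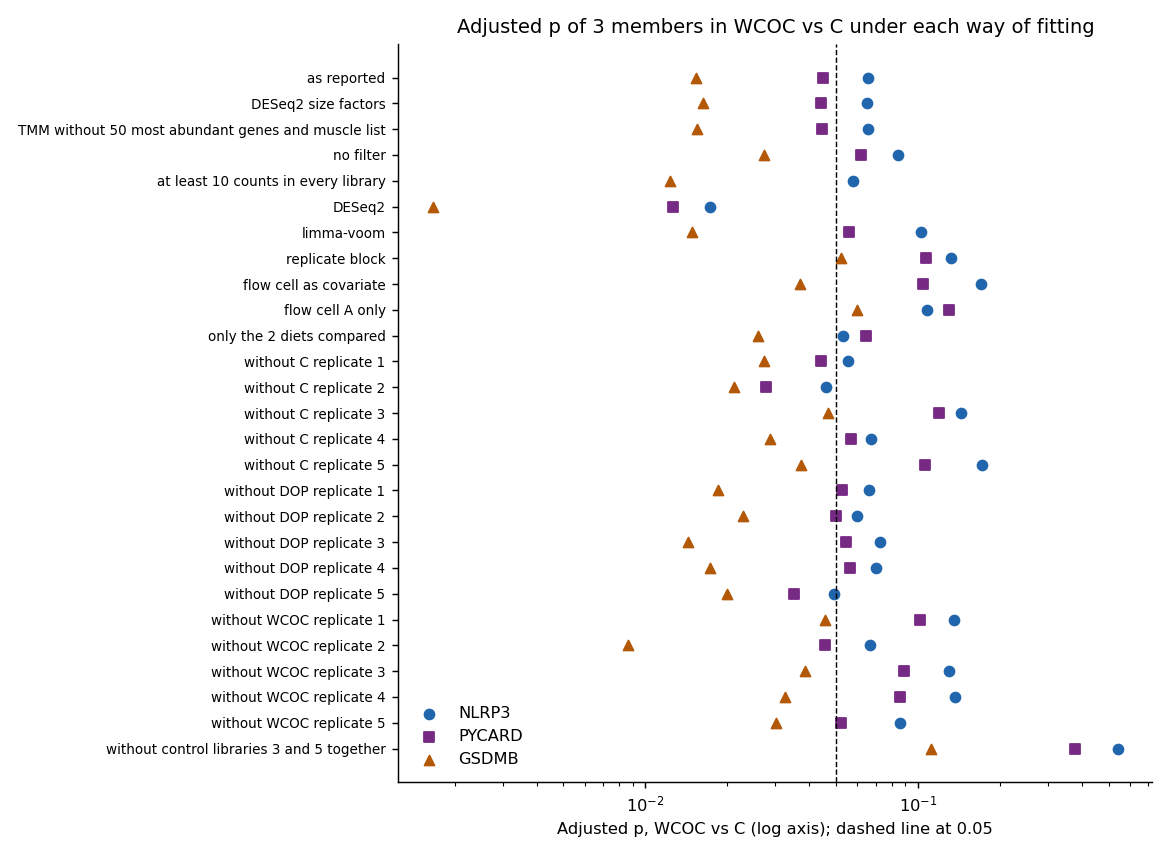
Adjusted p of NLRP3, PYCARD and GSDMB in WCOC vs. C (horizontal log axis, dashed line at 0.05) for the fit as reported and each other way of fitting the same counts. GSDMB stays left of the line in all 15 fits without 1 library, whereas PYCARD lies close to the line and NLRP3 mostly right of it, and no gene passes without control libraries 3 and 5.

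The stretch upstream of the first annotated base is shown for 3 genes, as background on the DNA next to genes that differed in direction. GSDMB and PYCARD were the DEGs of WCOC vs. C, and NLRP3 was called there by DESeq2 but not by edgeR. Each runs 5′ to 3′ over the 250 bases before the RefSeq start of the gene in Sscrofa11.1, and capitals mark the bases that the assembly masks as repeats. GSDMB lies at chr12:22418422-22418671 (plus strand), PYCARD at chr3:17305671-17305920 (plus) and NLRP3 at chr2:56977413-56977662 (minus).
GSDMB: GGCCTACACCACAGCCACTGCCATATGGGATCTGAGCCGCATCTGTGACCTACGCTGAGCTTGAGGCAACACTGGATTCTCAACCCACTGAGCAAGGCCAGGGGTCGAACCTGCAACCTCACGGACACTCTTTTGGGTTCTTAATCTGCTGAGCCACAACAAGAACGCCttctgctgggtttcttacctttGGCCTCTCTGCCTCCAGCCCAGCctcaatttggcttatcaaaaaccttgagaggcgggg
PYCARD: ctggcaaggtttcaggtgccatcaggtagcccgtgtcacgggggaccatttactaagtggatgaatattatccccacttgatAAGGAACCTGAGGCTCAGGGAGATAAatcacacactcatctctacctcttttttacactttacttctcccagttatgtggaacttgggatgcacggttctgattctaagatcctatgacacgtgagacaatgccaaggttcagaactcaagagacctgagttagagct
NLRP3: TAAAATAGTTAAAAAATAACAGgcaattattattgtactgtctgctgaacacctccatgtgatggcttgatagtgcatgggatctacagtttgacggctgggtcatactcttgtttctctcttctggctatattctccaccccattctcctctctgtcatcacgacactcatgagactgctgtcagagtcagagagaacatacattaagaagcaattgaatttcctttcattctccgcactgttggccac

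Repeats covered 192 of the 250 bases of the GSDMB window (76.8%), 26 in PYCARD and 22 in NLRP3. The median over the windows of 19559 genes was 10%, and 10.3% of windows were masked over more than 50% of their bases. The windows were searched on both strands for the letters of 6 motifs: NF-kB (GGG and TTTCC with 2 free bases between them, in 1.57% of all windows), the ETS or PU.1 core (GAGGAAG, 10.02%), the interferon-stimulated response element (GAAA, 2 free bases and GAAA again, 3.01%), AP-1 (TGANTCA, 5.27%), C/EBP (TTGNNNAAT, 8.72%) and the TATA box (TATAAA, 9.77%). None of these was found in the windows of GSDMB, PYCARD, NLRP3 or GSDME. GSDMD held AP-1 letters from −8 to −2 relative to its start, CASP1 TATA box letters from −84 to −79, and IL18 C/EBP letters from −192 to −184 on the opposite strand. The matches are a description of the letters and overlap no other motif of the list.

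Macrophages are the main cells known to assemble NLRP3 inflammasomes in fat, so their markers were set beside the genes. Of 16 listed markers 15 were measured, none of them at 0, and their summed level was 587 ± 297 CPM in C (range 332.4 to 1018), 353 ± 120 CPM in DOP (213.3 to 527.7) and 251 ± 111 CPM in WCOC (169.6 to 415.5; n = 5 each). In WCOC vs. C all 15 had a negative log2FC (median −1.21) and 7 were DEGs, all lower: CD68, CD163, MRC1, AIF1, ITGAM, SPI1 and MSR1. By the same rule 3.93% of all tested genes were lower DEGs. The markers were chosen with earlier results of these data known. All of those 7 but CD68 are already among the genes the paper names for WCOC, so they are not independent evidence. The sum differed by −1.19 on the log2 scale (two-sided exact permutation p = 0.0317, 0.127 after adjustment over 8 marker lists; the smallest p the design allows is 0.00794). In DOP vs. C 14 of the 15 had a negative log2FC, with a median (−1.21) like that in WCOC, and CD163 a positive one (0.14). MSR1 was the only DEG there with edgeR, beside 0.764% of all tested genes. DESeq2 called 8 of the 15 in DOP vs. C and 14 in WCOC vs. C, beside 3.32% and 7.92% of all genes. Values per marker without control replicates 3 and 5 are not reported here. The sum weighs markers by their level, and its difference in DOP vs. C was −0.66 (exact permutation p = 0.143, adjusted 0.286). Without control replicates 3 and 5 the difference in WCOC was −0.70 (exact permutation p = 0.0893) and in DOP −0.17 (p = 0.625), and on flow cell A alone it was −0.96 in WCOC (p = 0.0635).

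The sensor and the adaptor followed this sum from pig to pig. After centring within diets, Pearson's r over the 15 libraries was 0.864 for NLRP3 (permutation p = 9e-05, adjusted 0.00055 over 11 relations) and 0.824 for PYCARD (adjusted p = 0.00293), with Spearman's rho of 0.793 and 0.821 (adjusted p = 0.00532 for both). Leaving out the 2 libraries farthest from the median, control replicate 5 and WCOC replicate 2, gave r of 0.862 and 0.819. When control replicates 3 and 5 were left out, r was 0.761 and 0.729. Within flow cell A it was 0.844 and 0.757 (n = 9), and flow cell B holds a single diet but for 1 library and gives no value of its own. Relative to 100 CPM of the macrophage sum, NLRP3 stood at 0.505 ± 0.131 CPM in C, 0.449 ± 0.215 in DOP and 0.449 ± 0.0944 in WCOC. For PYCARD the ratio was 0.339 ± 0.0751, 0.237 ± 0.0463 and 0.323 ± 0.119. The lower means of the 2 genes in WCOC thus went together with lower macrophage markers, and the part of the markers in that result was not tested.

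CASP1 and GSDMD followed the sum less closely, with r of 0.669 and 0.698 (permutation p adjusted 0.0158 for both) and rho of 0.561 and 0.714 (adjusted p = 0.0476 and 0.0118). For GSDME r was 0.615 (adjusted p = 0.0376) but rho was 0.471 (adjusted p = 0.124). IL18 had r of 0.294 (adjusted p = 0.319), which became 0.604 without the 2 farthest libraries, 0.155 without control replicates 3 and 5, and −0.037 within flow cell A. For CASP1, GSDMD and GSDME r was 0.582, 0.677 and 0.562 without the 2 farthest libraries, 0.577, 0.600 and 0.605 without control replicates 3 and 5, and 0.513, 0.698 and 0.478 within flow cell A.

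GSDMB ran the other way. Its r with the macrophage sum was −0.690 (permutation p = 0.00292, adjusted 0.00642) and its rho −0.664 (adjusted p = 0.0118), with r of −0.607 without the 2 farthest libraries, −0.715 without control replicates 3 and 5, and −0.800 within flow cell A. Pigs with low macrophage markers had high GSDMB within diets too. Per 100 CPM of the sum GSDMB stood at 0.388 ± 0.192 CPM in C, 0.670 ± 0.338 in DOP and 1.47 ± 0.661 in WCOC, and its level in CPM differed between diets before any such division. Among the cells known to make or cut gasdermin B, summed keratinocyte and epithelial markers (10 matched of 12, range 20.5 to 141 CPM over all libraries) averaged 39.8 ± 15.9 CPM in C, 23.5 ± 3.78 in DOP and 64.0 ± 45.6 in WCOC. Between WCOC and C they differed by 0.52 on the log2 scale (exact permutation p = 0.262), and between WCOC and DOP by 1.21 (p = 0.0159, adjusted 0.127). Without WCOC replicate 5, which held 141 CPM and was left out after seeing the data, these differences were 0.17 (exact permutation p = 0.619) and 0.86 (p = 0.0159). The sum of T and NK cell markers (9 matched of 10) was 86.8 ± 15.4, 81.9 ± 16.5 and 64.8 ± 12.3 CPM, a difference of −0.42 in WCOC vs. C (exact permutation p = 0.0635, adjusted 0.127). CD247 made up 62.9% of this sum in C, 3 of the 9 markers had a positive log2FC in WCOC vs. C and 6 a negative one (median −0.14). The 1 DEG among them was NKG7 (log2FC −1.70 ± 0.44, edgeR adjusted p = 0.0270), where 3.93% of all tested genes were lower DEGs. NKG7 encodes a granule protein of cytotoxic lymphocytes and was named after its values were seen. CD3D, CD3E and CD8A had log2FC of 0.062, 0.049 and −0.14 in the same comparison. The part of these cells in the result was not tested.

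**Figure D4:**
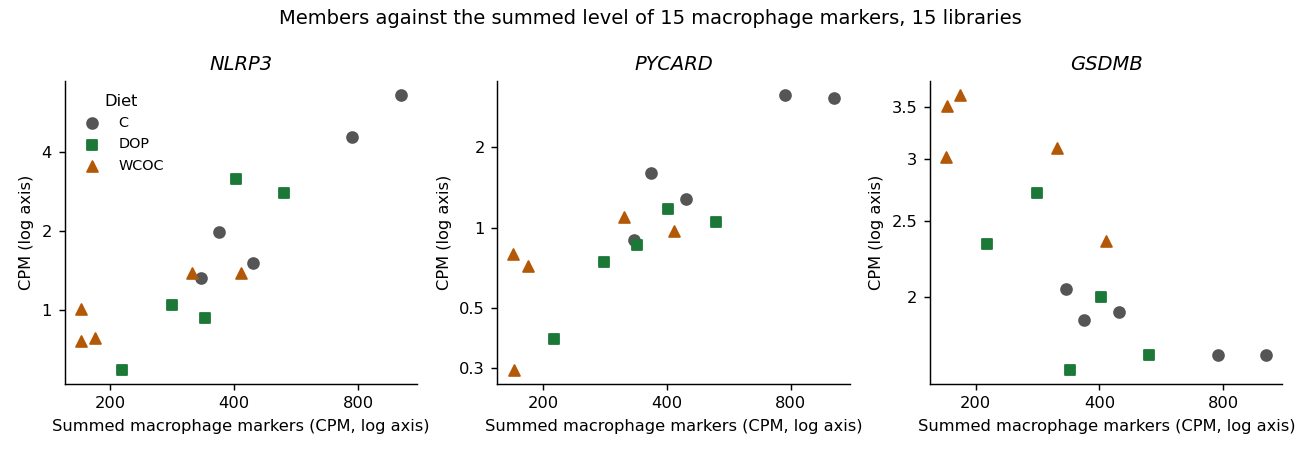
Level of NLRP3, PYCARD and GSDMB in CPM against the summed level of 15 macrophage markers in CPM (both axes log), with 1 point per library and the diet by colour and shape. NLRP3 and PYCARD rise with the sum and control replicates 3 and 5 lie at its upper end (774.7 and 1018 CPM), whereas GSDMB falls with it.

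Among the genes themselves, NLRP3 varied with CASP1 (r 0.857, permutation p adjusted 0.00055, rho 0.796) and with PYCARD (r 0.770, adjusted p = 0.00294, rho 0.764). These values were 0.737 and 0.897 without the 2 farthest libraries, 0.873 and 0.637 without control replicates 3 and 5, and 0.623 and 0.698 within flow cell A. PYCARD and CASP1 were less alike (r 0.467, adjusted p = 0.124; 0.245 without the 2 farthest, 0.139 within flow cell A). For GSDMD and its protease CASP1 the value was close to 0 (r 0.048, adjusted p = 0.885, rho 0.071; 0.131 without the 2 farthest, −0.161 within flow cell A).

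The genes whose pattern over the 15 libraries was most like that of PYCARD, by r of log2 CPM with no test, were ACP5 (r 0.933), ZNF414 (0.929), SYK (0.895), RGS2 (0.876) and HPGDS (0.869). ACP5 encodes the tartrate-resistant acid phosphatase of osteoclasts and macrophages, SYK a kinase of immune receptors, and HPGDS the prostaglandin D synthase of haematopoietic cells. For GSDMB they were GUCY1A1 (0.879), ZBED5 (0.868), NUP155 (0.819), HOXA9 (0.814) and OSGEPL1 (0.811). GUCY1A1 encodes a subunit of the nitric oxide receptor guanylate cyclase, NUP155 a nucleoporin and HOXA9 a homeobox factor. The values were centred within diets, so the diet differences did not enter them, and they say nothing of a shared function.

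Around the set, a list of 65 genes covered other sensors, the receptors and signalling of priming, triggers and licensing factors, other caspases, the IL-1 family and its receptors, other gasdermins, and factors that restrain the complex. Of these 47 were matched and 40 tested. In WCOC vs. C 1 of 40 was a DEG, beside the 6.25% of all genes, with 19 positive and 21 negative values and a median log2FC of −0.027. In DOP vs. C 0 of 40 were DEGs with edgeR (2 with DESeq2, which called 3.32% of all genes), 7 of 40 had an unadjusted p under 0.05, as did 17.6% of all tested genes, and the median was −0.062. The other roles of the list held no DEG in either diet with edgeR.

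The DEG was CTSB, cathepsin B, a lysosomal protease that reaches the cytosol when lysosomes rupture and is linked to NLRP3 activation. It fell from 1062 ± 485 CPM in C to 557 ± 108 CPM in WCOC, with a log2FC of −0.93 ± 0.25 (edgeR adjusted p = 0.0324), and had a log2FC of −1.09 in DOP (adjusted p = 0.0567). The count of DEGs in the list was 0 without control replicate 3 or 5 and without WCOC replicate 3, 4 or 5, 2 without control replicate 1 or 2, and 3 without WCOC replicate 2. None of the 10 priming genes was a DEG with edgeR in either diet against C. Their log2FC ran from −1.17 to 0.16 in WCOC, with 9 of 10 negative (median −0.12, against 0.0043 over all tested genes). In DOP it ran from −0.38 to −0.036, with 10 of 10 negative (median −0.19, against 0.011). These signs rest on all controls, and values without control replicates 3 and 5 are not reported here. The lowest in WCOC was TLR2, the receptor of bacterial lipopeptides, at −1.17 ± 0.39 (edgeR adjusted p = 0.0718), with 2.26 to 9.24 CPM among the controls. With DESeq2, the paper reports TLR2 as suppressed in WCOC.

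In WCOC vs. DOP 3 of the 40 genes were DEGs, a share like the 7.76% of all tested genes. All 3 belong to the IL-1 receptor family and were named after their values were seen. IL1R2, the decoy receptor, and IL1RAP, the shared co-receptor, were lower in WCOC than in DOP with log2FC of −1.73 (adjusted p = 0.0362) and −0.66 (adjusted p = 0.0435). IL1R2 was low throughout, at 0.436 ± 0.215 CPM in C, 1.74 ± 1.07 in DOP and 0.520 ± 0.311 in WCOC. Against C its log2FC was 0.22 in WCOC (edgeR adjusted p = 0.826) and 1.95 in DOP (0.0820). For IL1RAP these were −0.30 (0.361) and 0.36 (0.371). With DESeq2, the paper lists IL1R2 and CTSB among its genes of DOP vs. C. SIGIRR, an inhibitory member of the family, was higher by 0.73 (adjusted p = 0.00356). Against C, SIGIRR had a log2FC of 0.54 ± 0.12 in WCOC (adjusted p = 0.0152), under the limit of 0.58, with 8.31 ± 0.998 CPM in C and 12.1 ± 1.81 CPM in WCOC. IL18R1, a chain of the receptor of interleukin 18, was listed at 0 in every library, as was the sensor NLRP6.

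**Figure D5:**
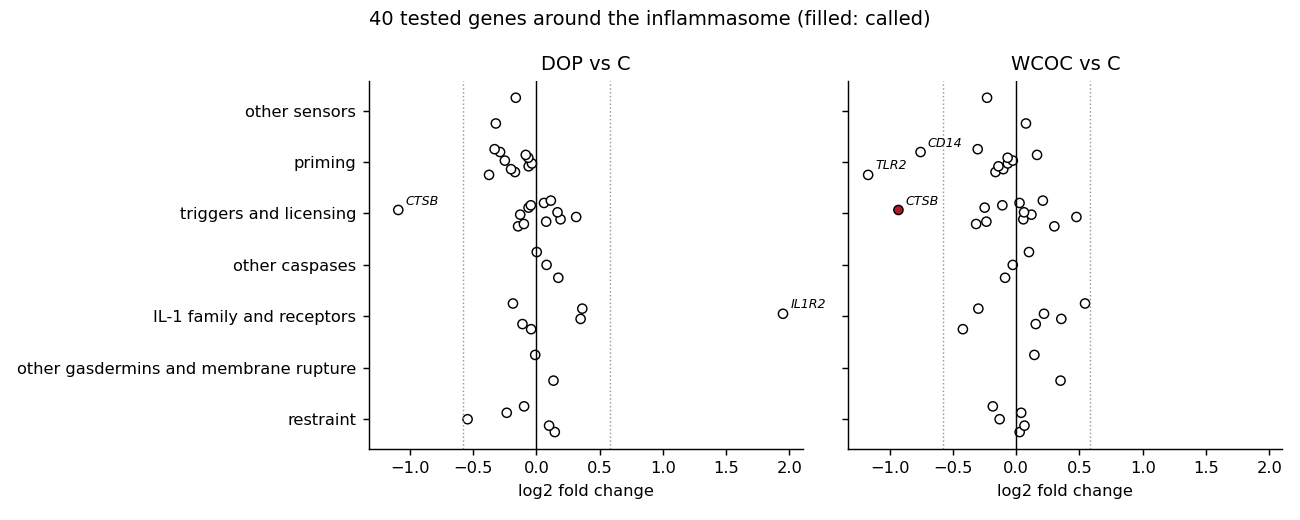
Log2FC of the 40 tested genes around the inflammasome (horizontal axes) by role in DOP vs. C and WCOC vs. C, where the filled point is a DEG and dotted lines mark 0.58 in size. Most values are under 0.58 in size, and those of the priming genes lie mostly below 0 (9 of 10 in WCOC). CTSB (−0.93) is the filled point in WCOC. IL1R2 has the highest value in DOP (1.95) without being a DEG with edgeR (adjusted p = 0.0820).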

How the data were processed

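Backfat RNA of 15 pigs, 5 on each diet, was sequenced as 1 library per pig. The authors aligned read pairs to Sscrofa11.1 with HISAT2 and assigned them to Ensembl genes with HTSeq-count. The deposited values are these raw counts, without normalization or pooling. Neither the strand option of HTSeq-count nor the release of the annotation is given in the sources used here. Each file lists 30477 genes, and its 5 summary lines (23.4% to 32.8% of a library) stayed out of library sizes and tests. Diets and replicate numbers come from the labels and flow cells from the run identifiers of the files.

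The edgeR package 4.0.16 was used in R 4.3.3 (filterByExpr, 14918 genes; TMM; quasi-likelihood fit with 1 mean per diet over all 15 libraries; common dispersion 0.0814). Levels are CPM after TMM scaling, with a prior count of 1 for log2 values. The series' design text gives 5 pigs per diet, and p-values measure the spread between their libraries. DESeq2 1.42.0, limma-voom (limma 3.58.1), DESeq2's size factors, TMM without the 50 most abundant genes and the muscle list, filters of no kind or of at least 10 counts per library, a block for the replicate number, a fit to the diets compared alone, no log2FC limit, a flow cell term, the libraries of flow cell A, and each library left out were alternatives. Marker sums were compared by exact permutation (252 arrangements) and relations by 100000 permutations within diets. The workflow was tested on simulated data. No libraries were alike within counting noise.

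The genes, the list of 65 further genes and the marker lists (macrophage, neutrophil, T and NK cell, B cell, keratinocyte and epithelium, adipocyte, endothelial, skeletal muscle) were chosen with earlier results of these data known. All 10 genes of the set are named, as is every DEG among the further genes in DOP vs. C or WCOC vs. C, and the 5 genes most like each DEG of the set. Symbols came from a reference table that pairs 14864 of the identifiers, and positions and upstream sequence from RefSeq annotation of Sscrofa11.1, the build of the files. Values of the list of 65 are given for its DEGs and a few others, and most are not reported here.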

Additional observations from a re-analysis of the deposited data

Results flagged for a closer look

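In groups of 5 libraries, 45 were checked for a lone high or low value and 5 held one, where chance gives about 1 in 20. Among the genes of the set this was CASP1 in control replicate 5, at 6.06 CPM against 1.84 to 2.48 CPM in the other 4 controls. The summed B cell markers were highest in DOP replicate 2 (13.5 CPM) and WCOC replicate 5 (9.06 CPM). The summed skeletal muscle markers were highest in DOP replicate 5 (37593 CPM) and WCOC replicate 4 (583.5 CPM).

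The responses to the olive diets against C differed from each other, by the test of WCOC vs. DOP, for GSDMB (log2FC 0.59, edgeR adjusted p = 0.0384) and for the receptors IL1R2 (−1.73, adjusted p = 0.0362), IL1RAP (−0.66, adjusted p = 0.0435) and SIGIRR (0.73, adjusted p = 0.00356). DOP and WCOC were run on separate flow cells, so diet and flow cell cannot be told apart there except through control replicate 5.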

How the results depend on the processing

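Of 529 fold changes of the 7 genes refitted under an alternative, 454 kept their direction and their side of the threshold, 34 kept the direction and lost the call, 4 gained one, and 37 changed sign, none of them a called value; the causes were not tested unless a setting's construction (fewer genes or samples) shows them. The number of called genes of the set in WCOC vs. C (2) was 1 with no filter, with at least 10 counts in every library (where PYCARD is not tested), with limma-voom, with flow cell as a covariate and with only the diets compared, 0 on flow cell A alone and without control replicates 3 and 5 (chosen after seeing the data), and 1 to 3 with 1 library left out. In WCOC vs. DOP (1) it was 2 with DESeq2, 0 with no filter, flow cell as a covariate, only the diets compared or without those 2 controls, and 0 to 1 with 1 library left out. In DOP vs. C it was 0 in every setting. Of the 40 further genes, 2 (DESeq2), 1 (flow cell as a covariate) and 0 to 1 (1 library left out) were called in DOP vs. C in place of 0. In WCOC vs. C, in place of 1, 2 were called with DESeq2 or without a log2FC limit, 0 with limma-voom, a flow cell term, only the diets compared, flow cell A alone or without those controls, and 0 to 3 with 1 library left out. The macrophage sum in WCOC vs. C was −1.40 to −0.96 with 1 library left out, −0.96 on flow cell A alone and −0.70 without those controls, and its exact permutation p passed 0.05 without control replicate 1 (0.0556), 3 (0.0556) or 5 (0.0635) and without WCOC replicate 1, 3 or 4 (0.0635 each).

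The values that changed sign were these. Without control replicates 3 and 5 the log2FC was 0.081 (NLRP3), 0.015 (CASP1) and 0.10 (GSDME) in DOP vs. C, and 0.20 (CASP1), 0.17 (IL18) and 0.061 (GSDME) in WCOC vs. C. With flow cell as a covariate it was 0.80 (NLRP3), 0.70 (PYCARD) and 0.35 (GSDME) in WCOC vs. DOP, 0.11 (CASP1), 0.015 (IL18) and 0.022 (GSDME) in WCOC vs. C, and −0.017 (GSDMD) in DOP vs. C. On flow cell A alone it was 0.0997 (CASP1), 0.0052 (IL18) and 0.013 (GSDME), and with no filter 0.0029 (IL18), all in WCOC vs. C. With 1 library left out CASP1 ranged from −0.55 to 0.11 in WCOC vs. C (positive without control replicate 5) and from −0.017 to 0.67 in WCOC vs. DOP, IL18 from −0.0996 to 0.0996 in WCOC vs. C, PYCARD from −0.30 to 0.094 in WCOC vs. DOP, and GSDME from −0.22 to 0.062 in DOP vs. C, −0.23 to 0.075 in WCOC vs. C and −0.20 to 0.15 in WCOC vs. DOP.

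The replicate numbers of the labels did not pair the libraries: 3 of 15 same-number pairs had a correlation of deviations over 0.1 (range −0.50 to 0.34) and 1 of 15 libraries was most like one of its own number. With the replicate number as a block, 0 of the 7 genes were called in each of the 3 comparisons (GSDMB 0.75, adjusted p = 0.0523, and PYCARD −1.35, adjusted p = 0.107, in WCOC vs. C), and 0 of the 40 further genes. Over all genes the block gave 561 DEGs between WCOC and DOP in place of 1158, 0 in DOP vs. C in place of 114, and 473 in WCOC vs. C in place of 933. Other settings that moved these counts by over 1.5 times were, in DOP vs. C, DESeq2 (496), limma-voom (19), only the diets compared (2) and the fit without control replicates 3 and 5 (0); in WCOC vs. C, no log2FC limit (1493), flow cell A alone (486) and the fit without those controls (289); and in WCOC vs. DOP, no log2FC limit (1842) and flow cell as a covariate (1). With 1 library left out the counts ran from 639 to 1291 between WCOC and DOP, from 0 to 200 in DOP vs. C, and from 468 to 1163 in WCOC vs. C.

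At 9 to 200 counts per library NLRP3, PYCARD and GSDMB carry counting error beside the spread between pigs. The 95% interval in WCOC vs. C was −2.70 to −0.49 for NLRP3 and 0.39 to 1.13 for GSDMB, so the precision differed between the genes.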

Other observations

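Summed endothelial markers (5 matched of 7) were 925 ± 82.0 CPM in C, 1205 ± 166 in DOP and 1194 ± 205 in WCOC (n = 5), with two-sided exact permutation p of 0.00794 in DOP vs. C, the smallest the design allows, and 0.0476 in WCOC vs. C (0.0635 and 0.127 after adjustment over 8 lists). Summed adipocyte markers (7 of 8), which define the labelled tissue, were 12169 ± 1429, 14629 ± 1550 and 15774 ± 2329 CPM, with exact permutation p of 0.0397 and 0.0317 (adjusted 0.106 and 0.127). Neutrophil markers (5 of 8) stood at 56.6 ± 27.4, 41.3 ± 9.61 and 32.7 ± 21.7 CPM. B cell markers (6 of 7, CD79A at 0 in every library) stood at 1.26 ± 0.309, 3.73 ± 5.45 and 3.16 ± 3.35 CPM. Skeletal muscle markers (3 of 10) ranged from 15.5 to 37593 CPM over the libraries, with exact permutation p of 0.302 in DOP vs. C and 0.294 in WCOC vs. C. Among the 9 tested keratinocyte and epithelial genes 2 were DEGs, both higher, in WCOC vs. DOP, beside 7.76% of all tested genes, and 0 in the other comparisons.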
